A study of Rattus norvegicus with 24 samples.

Results

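The 4 subunit genes of CaM kinase II, Camk2a, Camk2b, Camk2d and Camk2g, and the 2 genes of its inhibitor proteins, Camk2n1 and Camk2n2, were described in embryonic day 18 rat pups, from tissue of the hippocampus with the neocortex. The 6 genes were taken by their symbols from a table of 17420 genes. RNA was sequenced from 24 Sprague-Dawley pups in 4 groups of 6, each with 3 pups from each of 2 litters. The study asked which transcripts of the fetal brain differ after 3 unlike maternal treatments, each used as a developmental model of schizophrenia. Saline dams were injected on gestational day 17. MAM dams received methylazoxymethanol acetate, a DNA-alkylating agent that stops cell division, at 22 mg/kg, and Poly I:C dams received polyinosine:cytosine, a synthetic double-stranded RNA that mimics a viral infection, at 7.5 mg/kg, both intraperitoneally on that day. Low Protein dams ate a diet with 6.1% protein from gestational day 11 until collection on day 18, against 20.3% in the control diet. No other control group was sequenced, so the saline dams were taken as those on the control diet. Collection followed injection by 18 hours. Whether Low Protein dams were injected, and what the dams given MAM or Poly I:C ate, is not given in the sources used here. The dam was treated and the pup was sequenced, so littermates share a dam and the p-values measure the spread between pups.

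CaM kinase II is a serine and threonine kinase that calcium-bound calmodulin switches on. Its subunits assemble into a large holoenzyme, whose subunits phosphorylate each other and so stay active after calcium has fallen. Camk2a encodes the alpha subunit, the main form of adult forebrain excitatory synapses, and its expression climbs after birth. Camk2b encodes the beta subunit, which binds actin and is made earlier in neuronal development, while Camk2d and Camk2g encode the delta and gamma subunits of many tissues. Camk2n1 and Camk2n2 encode small proteins that bind the active kinase and block it.

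The deposited values are TPM that appear to have been divided by the whole genomic span of a gene, introns included, rather than by its transcript length. This was judged from low genes, whose values times the span lie within 0.05 of a whole read for 48.3% to 54.2% of genes in a pup, where evenly spread values would give 10%. The spans are from GRCr8 and not rn6, so the estimated reads and the shares made from them are approximate. The deposited values sum to 70350.1 in every pup. A level between genes in this unit is therefore a level per genomic span, and it is low for genes with long introns. Reads per gene were estimated by multiplying the value by the span and dividing by the step that 1 read makes in that pup. By this estimate a pup held 25 to 64.6 M reads (megareads). Poly I:C pups had the lowest group median, 30.6 M, against 33.9 M for saline, 42.5 M for MAM and 44.2 M for Low Protein. Of the 87 cell type marker genes in the table, none was at the offset in any pup, and all 11 neuron markers were present. In bulk tissue, fewer cells of a type and less RNA per cell cannot be told apart.

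The RefSeq promoters of Camk2a, Camk2d and Camk2b are printed because the first pair varied most alike across pups and Camk2b least like them, as described further on. Each holds 250 bases before and 50 bases after the start of the gene in the GRCr8 assembly, 5′ to 3′, with matches to GGGCGG on either strand (the GC box, bound by Sp1) in capitals.

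Camk2a promoter, chr18:56648930-56649229 (+ strand): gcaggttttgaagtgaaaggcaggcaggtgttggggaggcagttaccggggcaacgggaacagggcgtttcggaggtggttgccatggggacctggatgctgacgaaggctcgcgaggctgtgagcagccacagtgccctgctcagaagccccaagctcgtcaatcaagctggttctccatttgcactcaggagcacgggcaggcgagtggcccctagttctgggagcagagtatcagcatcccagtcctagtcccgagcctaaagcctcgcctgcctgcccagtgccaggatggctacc

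Camk2d promoter, chr2:217698301-217698600 (+ strand): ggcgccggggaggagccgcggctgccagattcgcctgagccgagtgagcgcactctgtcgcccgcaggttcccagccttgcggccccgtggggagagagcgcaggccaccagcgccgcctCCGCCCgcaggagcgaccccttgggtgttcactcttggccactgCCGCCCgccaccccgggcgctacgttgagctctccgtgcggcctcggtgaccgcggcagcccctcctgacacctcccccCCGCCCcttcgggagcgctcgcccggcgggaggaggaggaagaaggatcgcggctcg

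Camk2b promoter, chr14:85147895-85148194 (- strand): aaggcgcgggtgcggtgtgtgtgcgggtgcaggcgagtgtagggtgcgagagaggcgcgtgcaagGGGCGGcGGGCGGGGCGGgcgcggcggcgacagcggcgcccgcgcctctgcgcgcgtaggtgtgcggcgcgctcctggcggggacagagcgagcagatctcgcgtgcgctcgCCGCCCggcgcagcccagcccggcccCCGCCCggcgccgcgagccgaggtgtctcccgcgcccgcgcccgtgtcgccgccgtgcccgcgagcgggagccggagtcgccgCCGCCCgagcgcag

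The Camk2a window held no GGGCGG, that of Camk2d held 3 and that of Camk2b 6, where overlapping matches count separately. Of 33469 rat promoter windows of this length, 33.1% held at least 1. The windows of Camk2g and Camk2n2 held 9 and 6, and Camk2n1 was not matched in the promoter table. TATAAA (the TATA box, in 14.2% of windows), CCAAT (in 37.5%) and TGACGTCA (the cyclic AMP response element, in 1.83%) were searched on both strands too, and none of the 5 windows held any of them. The GC content was 61.3% for Camk2a, 74.7% for Camk2d and 81.3% for Camk2b, against a median of 51.7% over all windows.

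In saline pups the beta subunit dominated the reads of the kinase. Camk2b had on average 12587 estimated reads per saline pup, more than 97.2% of the 12264 genes tested. Camk2g had 1429 reads, Camk2d 1139 and Camk2a 595, which placed Camk2a above 41.2% of the genes. Among the reads of the 4 subunits, Camk2b took 79.7% ± 2.48 (SD, n = 6), Camk2g 9.23% ± 0.915, Camk2d 7.26% ± 1.24 and Camk2a 3.84% ± 0.639. This order, with Camk2b first and Camk2a last, held in all 24 pups. These shares are of reads and were not divided by transcript length, so a subunit with a longer transcript takes a larger share. How the quantification divided reads that fit more than 1 subunit does not show in the table.

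Per genomic span the order was different. The inhibitors stood highest in saline, at 11.8 ± 2.48 (SD, n = 6) for Camk2n2 and 11.4 ± 1.25 for Camk2n1, and their ranges overlapped. Camk2b followed at 3.06 ± 0.296, then Camk2g at 0.531 ± 0.0319, Camk2a at 0.207 ± 0.0254 and Camk2d at 0.0932 ± 0.011. Below the inhibitors no 2 neighbours overlapped, and each of these steps held in all 24 pups. The spans run from 1782 bases for Camk2n1 and 4042 for Camk2n2 to 263575 for Camk2d, and they enter this order directly. Both scales placed Camk2b first among the subunits and Camk2a below Camk2g.

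**Figure D1:**
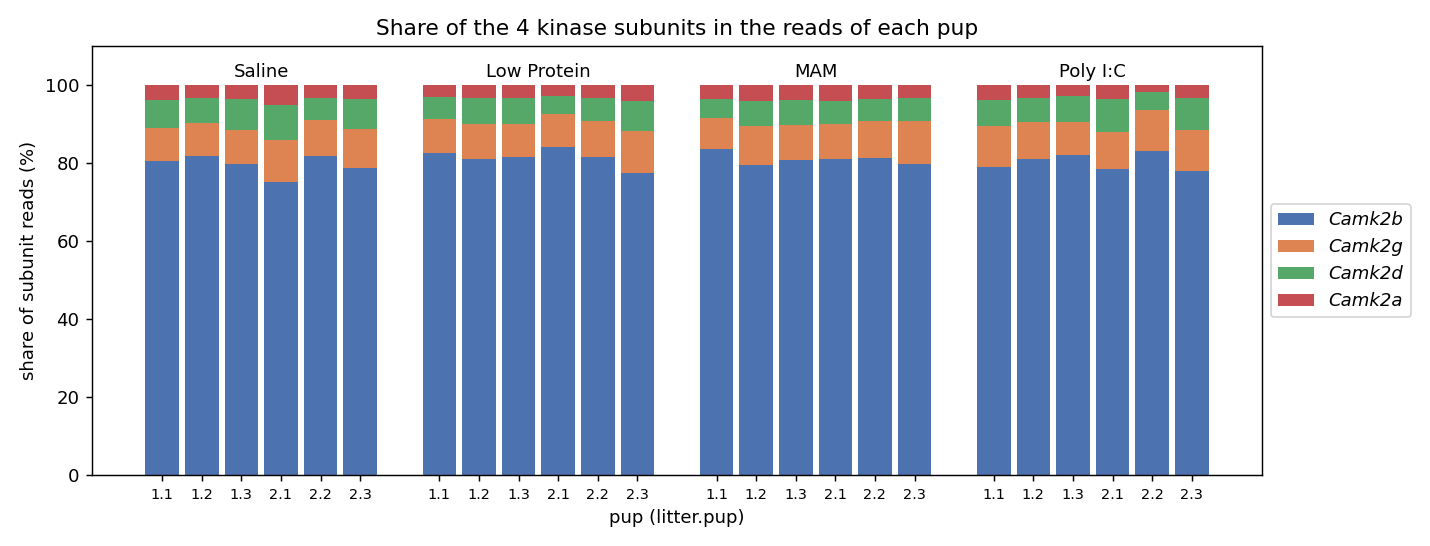
Share of estimated reads (y axis, percent) that each of the 4 kinase subunits took of their sum in each of 24 pups (x axis, numbered by litter and pup within its group). Camk2b holds 75.2% to 84.1% in every bar and Camk2a, on top, 1.80% to 5.11%.

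Among the subunit reads, the large share of Camk2b varied little over the 24 pups. The smaller shares varied more for their size, that of Camk2d from 4.63% to 8.96%. The share of Camk2b ran from 75.2% to 84.1%, and its group means lay between 79.7% in saline and 81.4% in Low Protein. The share of Camk2a ran from 1.80% in Poly I:C pup 2.2 to 5.11% in saline pup 2.1. Per Camk2a read, saline pups had 21.2 ± 3.37 Camk2b reads (SD, n = 6). The ratio was 24.4 ± 3.33 for Low Protein and 21.9 ± 2.09 for MAM. Poly I:C pups had the widest spread, 27.8 ± 9.31, and 1 of them reached 46.1. The 2 inhibitors together had 14.7% to 28.6% as many reads as the 4 subunits. All subunits together made 411 ± 23.8 of each M reads in saline. They made 353 ± 46.7 in Poly I:C, 375 ± 15.0 in Low Protein and 392 ± 40.1 in MAM. No test was run on these shares and sums.

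A pair of pups stood apart, and they bear on several values that follow. Saline pup 2.1 lay outside the range of its 5 group mates in all 6 genes, highest in 5 and lowest in Camk2b. Its summed pyramidal cell markers were 127, against 206 to 256 in the other saline pups, and its summed interneuron markers were 211, against 124 to 147. Its striatum markers summed to 15.9, against 7.65 to 10.6. Poly I:C pup 2.2 was the lowest of its group in 5 of the 6 genes, Camk2b being the exception. Its interneuron sum was 75.8, against 103 to 130 in the other Poly I:C pups, and its choroid plexus sum was 244, against 32.7 to 202. Its pyramidal cell sum was the highest of the group, 282 against 205 to 248. Its striatum and oligodendrocyte lineage sums also lay below the other pups, and its thalamus, meninges and endothelium sums above them. Marker sums add values per genomic span, so the few markers with the highest values weigh most in them. The part of tissue makeup in the levels of the 6 genes was not tested.

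**Figure D2:**
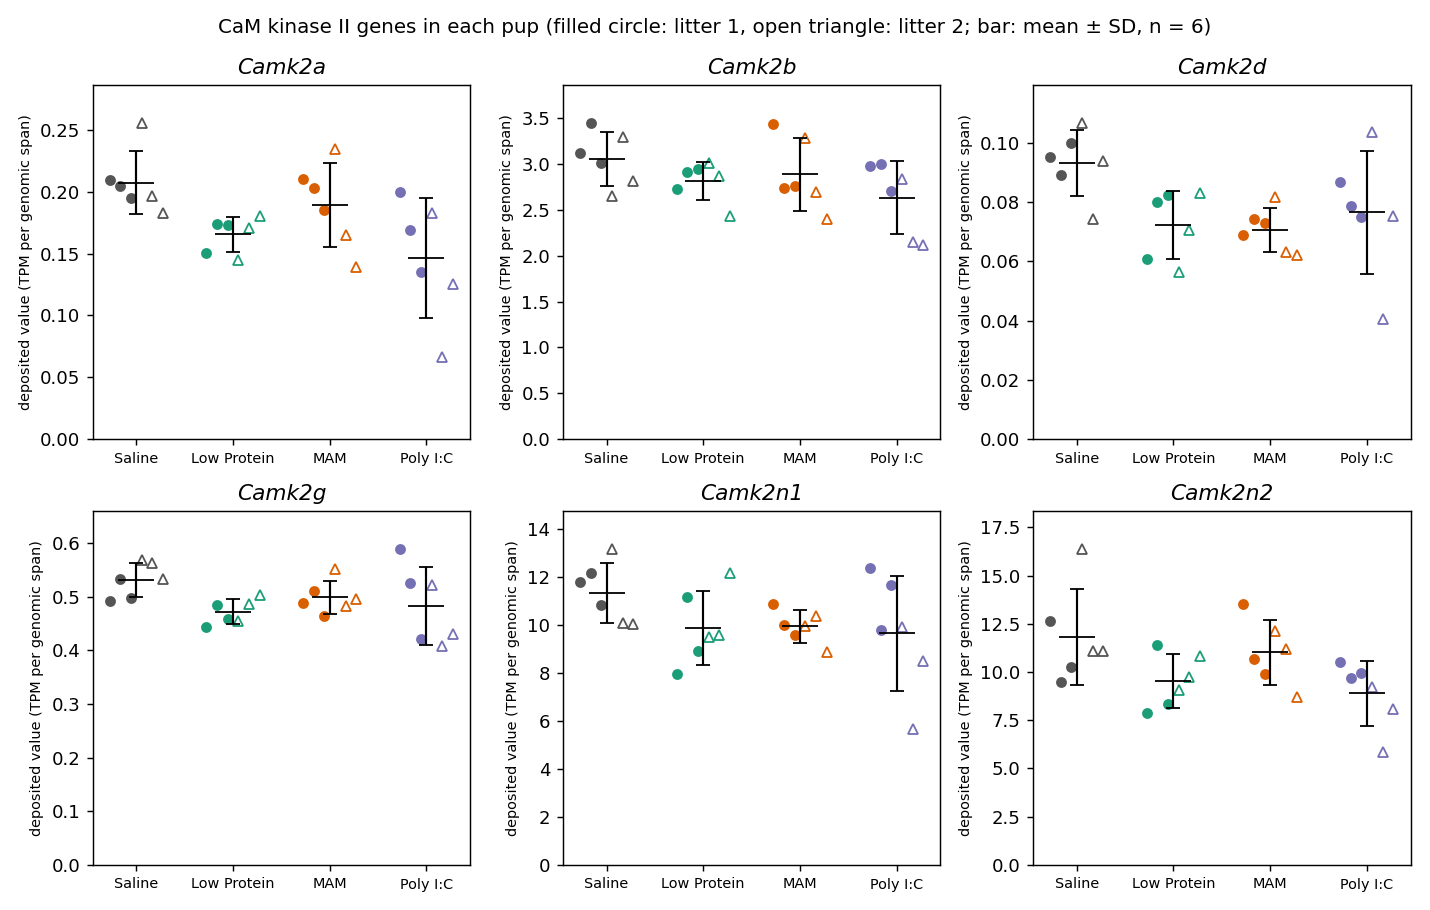
Deposited value of each gene (y axis, TPM per genomic span, from 0) in each pup of the 4 maternal treatment groups (x axis). Filled circles are litter 1, open triangles litter 2, bars the mean ± SD of 6 pups, and saline pup 2.1 and Poly I:C pup 2.2 sit at the edge of most panels.

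Each treatment group was then compared with saline, on the log2 scale, by limma over 12264 genes. All 18 fold changes of the 6 genes lay below 0. No gene passed an adjusted p under 0.05 (limma, Benjamini-Hochberg over all genes tested) in any comparison, so the direction below is that of values, not of tested changes. At an unadjusted p under 0.05, 3 of the 6 genes were lower in Poly I:C, 2 in Low Protein and 1 in MAM, and no gene was called higher. Of all genes tested, 5.58%, 4.63% and 8.02% were called lower by that rule. When an absolute log2 fold change of 0.6 or more was also required, a limit on the log fold change that the study used for Poly I:C and Low Protein, 0 of the 6 genes were called in either, against 0.595% and 0.44% of all genes called lower. An adjusted p under 0.05 was reached by 0.0163% of all genes for MAM and by 0.0% for each of the other treatments, although 1170 genes for Poly I:C and 892 for Low Protein had an unadjusted limma p under 0.05. The median log2 fold change of the 6 genes was -0.30 for Poly I:C, -0.25 for Low Protein and -0.12 for MAM, against 0.0038, -0.015 and -0.071 over all genes. Fold changes below 0 made up 48.9%, 55% and 71.9% of all genes in that order. The 3 comparisons share the 6 saline pups, so saline pup 2.1 enters all of them.

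**Figure D3:**
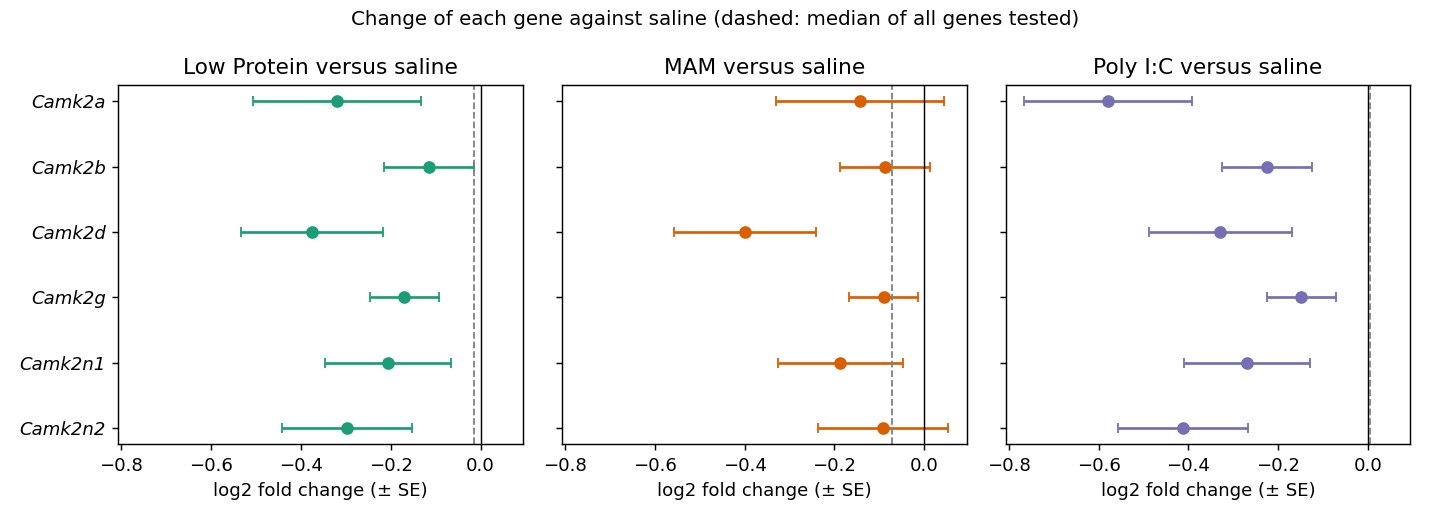
Log2 fold change against saline (x axis, ± SE from limma, 6 pups against 6) of the 6 genes (y axis), with 1 panel for each treatment. All 18 points lie left of 0, from -0.58 for Camk2a in Poly I:C to -0.09 for Camk2b in MAM, and the dashed line marks the median of all genes.

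The alpha subunit gene Camk2a had its lowest values in Poly I:C. In saline it ran from 0.183 over a median of 0.201 to 0.256. Low Protein pups ran from 0.145 over 0.172 to 0.181, MAM pups from 0.139 over 0.194 to 0.234, and Poly I:C pups from 0.0661 over 0.152 to 0.199. All 6 Low Protein pups lay below all 6 saline pups, while MAM and Poly I:C overlapped with saline. Non-overlap of this kind, in the lower direction, was seen in 0.546% of all genes for Low Protein, 0.302% for Poly I:C and 0.66% for MAM, and Camk2a in Low Protein was the 1 case among the 6 genes. The gap was narrow, from 0.181 to 0.183.

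Against saline, Camk2a was lower by a log2 fold change of -0.58 ± 0.19 (SE) in Poly I:C, with a limma p of 0.0053, an adjusted p of 0.35 and an exact two-sided permutation p of 0.013. Of the 6 Poly I:C pups, 5 lay below every saline pup. Without Poly I:C pup 2.2 the value was -0.37 with a limma p of 0.00997, and without Poly I:C litter 2 it was -0.31 with a limma p of 0.0422. In Low Protein the fold change was -0.32 ± 0.19, with a limma p of 0.101, an adjusted p of 0.732 and an exact permutation p of 0.00216, the smallest that 6 against 6 allows. The limma fit pooled the spread of all 24 pups. With the spread of the 12 pups compared alone, the limma p for Low Protein was 0.003 and the adjusted p 0.334. In MAM the value was -0.14 ± 0.19, with a limma p of 0.455 and an adjusted p of 0.773.

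The beta subunit gene Camk2b, the most abundant by reads, had the fold changes nearest to 0 in Low Protein and MAM. Saline pups ran from 2.65 over a median of 3.07 to 3.45. Low Protein pups ran from 2.44 over 2.89 to 3.01, MAM pups from 2.41 over 2.75 to 3.44, and Poly I:C pups from 2.12 over 2.78 to 3.00. Every group overlapped with saline. The log2 fold change was -0.12 ± 0.10 (SE) in Low Protein and -0.09 ± 0.10 in MAM, with limma p-values of 0.263 and 0.392 and adjusted p-values of 0.847 and 0.739. In Poly I:C it was -0.22 ± 0.10, with a limma p of 0.0357, an adjusted p of 0.49 and an exact permutation p of 0.0736. The limma p was under 0.05 in 20 of 29 settings, the main fit included. Among the other settings, it was 0.106 without Poly I:C pup 2.2 and 0.109 without pup 2.3. It was 0.0561, 0.0857 and 0.0716 without saline pups 1.1, 1.2 and 2.2. Without saline litter 1 it was 0.231, and without Poly I:C litter 2 it was 0.488, where the value was -0.07. The reading of Camk2b is not limited by depth, since counting error in a pup was at most 1.15%.

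The delta subunit gene Camk2d was the 1 gene with an unadjusted limma p under 0.05 in both Low Protein and MAM. Saline pups ran from 0.0743 over a median of 0.0945 to 0.107. Low Protein pups ran from 0.0564 over 0.0753 to 0.0831, MAM pups from 0.062 over 0.0709 to 0.0819, and Poly I:C pups from 0.0405 over 0.077 to 0.104. The groups overlapped, and 4 MAM pups, 3 Low Protein pups and 1 Poly I:C pup lay below all saline pups. The lowest saline pup, 2.2, accounts for the overlap with Low Protein and MAM, since the other 5 saline pups lay above all 12 of those pups.

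Camk2d had a log2 fold change of -0.40 ± 0.16 (SE) in MAM, with a limma p of 0.0198, an adjusted p of 0.491 and an exact permutation p of 0.00649. In Low Protein it was -0.38 ± 0.16, with a limma p of 0.0273, an adjusted p of 0.667 and an exact permutation p of 0.013. Poly I:C gave -0.33 ± 0.16, with a limma p of 0.0505 and an adjusted p of 0.524. Without saline pup 2.1 the Low Protein value was -0.33 with a limma p of 0.0594, and the MAM value was -0.36 with a limma p of 0.0449. Without Poly I:C pup 2.2, the Poly I:C value was -0.16 with a limma p of 0.193.

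The gamma subunit gene Camk2g was the steadiest of the 6 genes between pups. Saline pups ran from 0.491 over a median of 0.533 to 0.568, Low Protein pups from 0.444 over 0.471 to 0.503, MAM pups from 0.464 over 0.491 to 0.551 and Poly I:C pups from 0.408 over 0.476 to 0.589. In Low Protein 5 of 6 pups lay below all saline pups, and all groups overlapped. The log2 fold change there was -0.17 ± 0.08 (SE), with a limma p of 0.0366, an adjusted p of 0.679 and an exact permutation p of 0.00866. In MAM it was -0.09 ± 0.08, with a limma p of 0.247 and an adjusted p of 0.632. Poly I:C gave -0.15 ± 0.08, with a limma p of 0.0645 and an adjusted p of 0.548. Without saline pup 2.1 the Low Protein value was -0.15 with a limma p of 0.0763.

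Of the inhibitor genes, Camk2n1 was not called in any comparison with saline. Saline pups ran from 10.1 over a median of 11.3 to 13.2, Low Protein pups from 7.97 over 9.54 to 12.2, MAM pups from 8.88 over 9.98 to 10.9 and Poly I:C pups from 5.66 over 9.87 to 12.4. All groups overlapped. The log2 fold change was -0.27 ± 0.14 (SE) in Poly I:C, with a limma p of 0.0669 and an adjusted p of 0.549, and it was -0.12 without Poly I:C pup 2.2. In Low Protein it was -0.21 ± 0.14, with a limma p of 0.155 and an adjusted p of 0.775. MAM gave -0.19 ± 0.14, with a limma p of 0.195, an adjusted p of 0.593 and an exact permutation p of 0.0346.

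Camk2n2, the other inhibitor gene, had its lowest mean in Poly I:C, 8.89 against 9.54 in Low Protein, and its lowest median in Low Protein. Saline pups ran from 9.46 over a median of 11.1 to 16.4, Low Protein pups from 7.89 over 9.40 to 11.4, MAM pups from 8.72 over 10.9 to 13.5 and Poly I:C pups from 5.86 over 9.48 to 10.5. Of the Poly I:C pups, 3 of 6 lay below all saline pups, and all groups overlapped. The log2 fold change in Poly I:C was -0.41 ± 0.14 (SE), with a limma p of 0.00938, an adjusted p of 0.383 and an exact permutation p of 0.0173. Low Protein gave -0.30 ± 0.14, with a limma p of 0.0521 and an adjusted p of 0.69. In MAM it was -0.09 ± 0.14, with a limma p of 0.536 and an adjusted p of 0.816, and it was 0.01 without saline pup 2.1. The Poly I:C value was -0.31 without saline pup 2.1 and -0.30 without Poly I:C pup 2.2, with limma p-values of 0.0338 and 0.0343.

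The 2 Poly I:C litters differed in size of change. In litter 2 the mean Camk2a value differed from the saline mean by -0.84 on the log2 scale, and in litter 1 by -0.31. Camk2n2 stood at -0.61 in litter 2 and -0.21 in litter 1, and Camk2n1 at -0.53 and -0.01. Camk2b (-0.38 and -0.07), Camk2d (-0.44 and -0.21) and Camk2g (-0.23 and -0.06) had the same order. With 2 litters a group, a difference between litters has no replicate check. Litter means of the neuron marker sum were 324 in litter 1 and 294 in litter 2, and those of the interneuron sum 123 and 101. The pyramidal cell sum went the other way, from 224 in litter 1 to 249 in litter 2. So did the choroid plexus sum, from 108 to 213. The part of these lists in the litter difference was not tested. Low Protein litters lay close together for Camk2a, at -0.32 in both. MAM litters were at -0.36 and -0.44 for Camk2d.

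**Figure D4:**
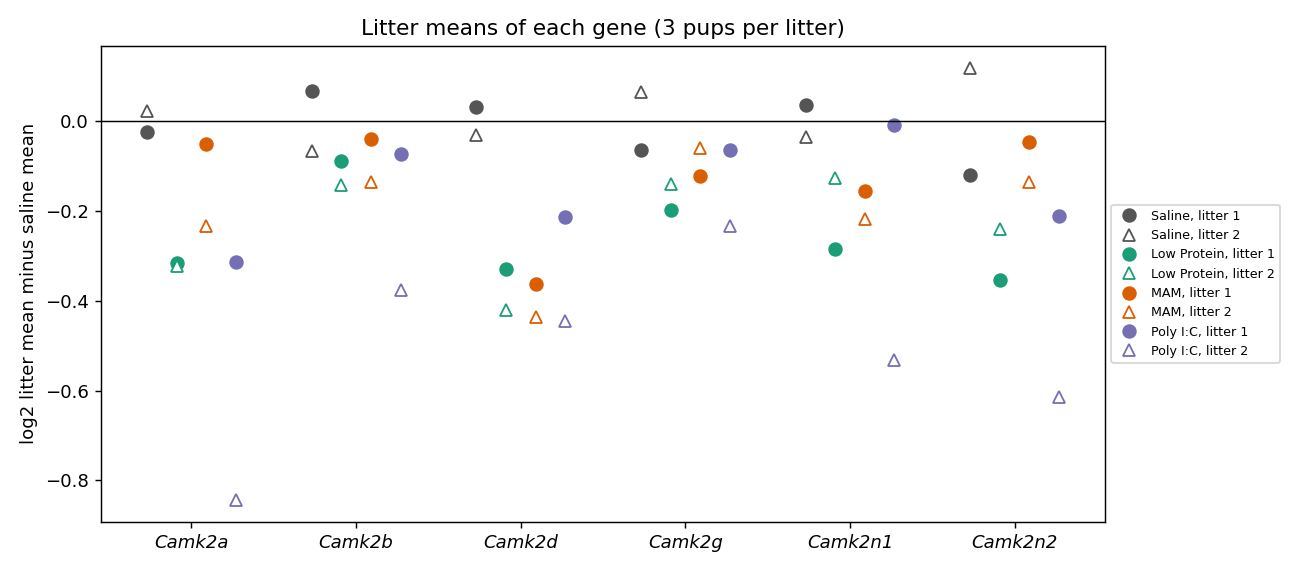
Mean of each litter (3 pups) minus the saline mean on the log2 scale (y axis) for the 6 genes (x axis), with filled circles for litter 1 and open triangles for litter 2 of each group. The Poly I:C litters are farthest apart, at -0.31 and -0.84 for Camk2a, and all 6 litters of treated dams lie below 0 for all 6 genes. Since 0 is the mean of the saline litters, a saline litter also lies below it for each gene. For Camk2b, Camk2g, Camk2n1 and Camk2n2 that saline litter lies below a treated litter. Camk2n2 is at -0.12 in saline litter 1 and at -0.05 in MAM litter 1. Poly I:C litter 2 holds pup 2.2.

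Differences among the 4 groups and between treatments were tested next. In a limma F test across the 4 groups, 2 of the 6 genes had an unadjusted p under 0.05, where 13.0% of all genes did. They were Camk2a, with a limma p of 0.0308 and an adjusted p of 0.344, and Camk2n2, with a limma p of 0.0363 and an adjusted p of 0.36. Camk2a was higher in MAM than in Poly I:C by a log2 difference of 0.44 ± 0.19 (SE), with a limma p of 0.0292 and an adjusted p of 0.205. Camk2n2 was higher in MAM by 0.32 ± 0.14, with a limma p of 0.0372 and an adjusted p of 0.228. Both rest on Poly I:C pup 2.2, since without it the differences were 0.22 and 0.21, with limma p-values of 0.0979 and 0.131. Without that pup Camk2d was the 1 gene called, lower in MAM at -0.24 with a limma p of 0.0473. With all pups, 2 of 6 genes were called, both higher in MAM, in a comparison that called 18.7% of all genes in either direction. Of those 2298 genes, 1843 were lower in MAM. Between Low Protein and MAM the count was 0 of 6, against 8.87% of all genes, and between Low Protein and Poly I:C 0 of 6, against 4.62%. Camk2d differed by 0.02 ± 0.16 between Low Protein and MAM, and its 3 treated means, 0.0722, 0.0706 and 0.0766, lay within 1 SD of each other.

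The marker lists were read beside these values. The 10 interneuron markers, all in the table, summed to 124 to 211 in saline. They reached 75.8 to 130 in Poly I:C, 90.1 to 124 in Low Protein and 113 to 140 in MAM. The 11 neuron markers summed to 313 to 349 in saline, against 275 to 331 in Poly I:C, 285 to 340 in Low Protein and 303 to 348 in MAM. The 8 pyramidal cell markers measured, of 9, summed to 127 to 256 in saline, against 205 to 282 in Poly I:C, 181 to 276 in Low Protein and 206 to 247 in MAM. The mean log2 level of the pyramidal list differed from saline by 0.05 for Poly I:C, 0.04 for Low Protein and 0.01 for MAM. In the same order the neuron list differed by -0.11, -0.13 and -0.18 and the interneuron list by -0.27, -0.38 and -0.24. Other lists stood lower in all 3 treatments too. These were the oligodendrocyte lineage list (6 of 6 markers measured) at -0.19, -0.27 and -0.23 and the striatum list (9 of 9) at -0.17, -0.30 and -0.38. The astrocyte list (5 of 5) stood at -0.23, -0.22 and -0.16, and the meninges list (5 of 5) at -0.011, -0.015 and -0.071. Their part in the result was not tested.

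The 6 genes varied together from pup to pup within groups. With group means removed, Pearson's r over the 24 pups was positive for all 15 pairs, from 0.31 to 0.87, and 9 pairs had an adjusted permutation p under 0.05 over the 15 pairs. Camk2a and Camk2d were closest, with r = 0.87 (permutation p = 2e-05, adjusted p = 0.00015) and Spearman's rho = 0.81 (permutation p = 2e-05, adjusted p = 0.00015). The inhibitors Camk2n1 and Camk2n2 followed, with r = 0.82 (permutation p = 1e-05, the smallest that 100000 resamples can give, adjusted p = 0.00015) and rho = 0.81 (permutation p = 2e-05, adjusted p = 0.00015). Camk2b and Camk2d were least alike, with r = 0.31 (permutation p = 0.257, adjusted p = 0.257) and rho = 0.21 (permutation p = 0.347, adjusted p = 0.347). Without the 2 pups farthest from the median of the first gene, r was 0.74 for the first pair, 0.74 for the inhibitors and 0.09 for Camk2b with Camk2d.

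Within litters the relations were similar. With litter means removed, r ran from 0.19 to 0.89, and 8 of 15 pairs had an adjusted permutation p under 0.05. It was 0.89 for Camk2a with Camk2d and 0.84 for the inhibitors. Camk2b had an r of 0.19 to 0.50 with the other 5 genes, none with an adjusted p under 0.05. Thus the gene with most of the reads was the one that followed the others least from pup to pup. The pups share the constant sum of values, and their tissue makeup varies, so these correlations describe the samples and not a link between the genes.

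**Figure D5:**
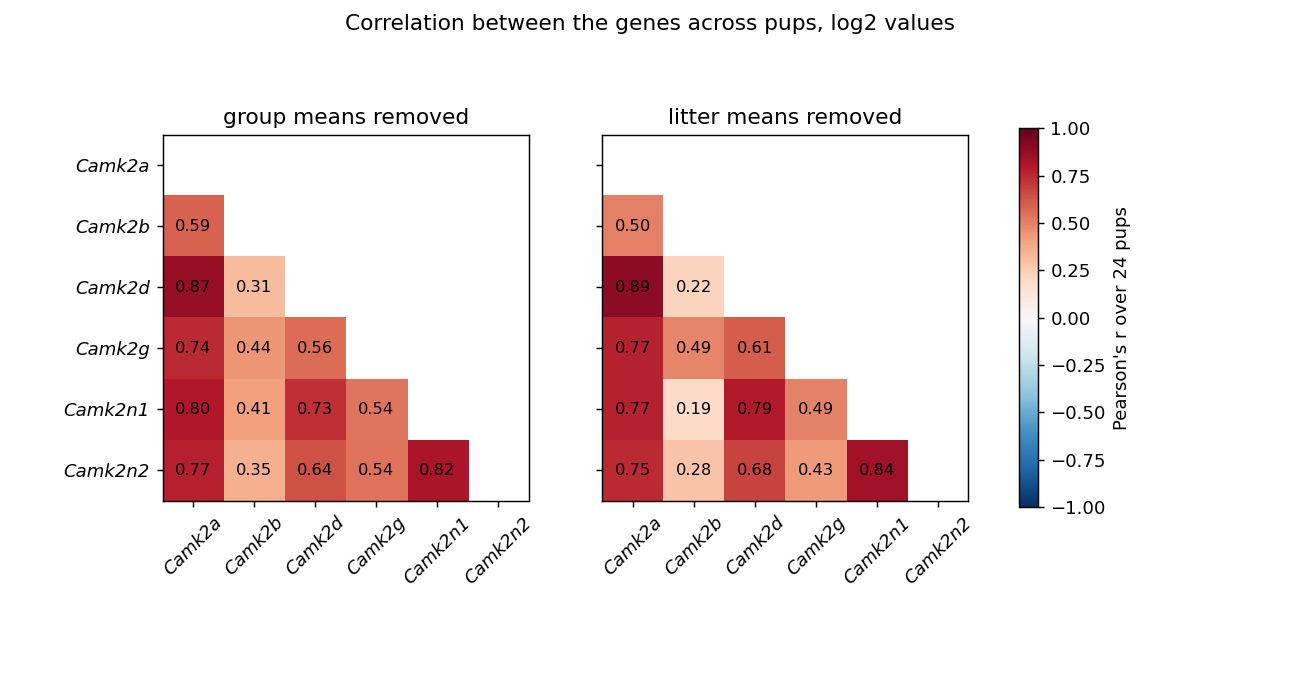
Pearson's r between log2 values of each pair of the 6 genes over 24 pups, with group means removed (left) and litter means removed (right). Camk2a with Camk2d (0.87 and 0.89) and Camk2n1 with Camk2n2 (0.82 and 0.84) are darkest, and Camk2b with Camk2d (0.31 and 0.22) is among the palest.

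The genes most like each of the 6 across pups were found over all genes tested, as Pearson's r of log2 values over 24 pups with group means removed. Closest to Camk2a were Rasal1, a Ras GTPase-activating protein (r = 0.94), Sphkap (0.93) and Grin3a, an NMDA receptor subunit (0.93). Grin3a (0.93) and Sphkap (0.87) were also among the closest to Camk2d. For Camk2b the 3 were Rac1, a small GTPase of the actin cytoskeleton (0.91), Grip2 (0.89) and Slc6a17 (0.89), and for Camk2g they were Chd5, a chromatin remodeller (0.90), Tvp23a (0.90) and Wdfy1 (0.89). Camk2n1 was closest to Nrsn2 (0.92), to Syp, the synaptic vesicle protein synaptophysin (0.91), and to Camk1g (0.90). Camk2n2 was closest to Eef1a2, the elongation factor of mature neurons (0.92), Cpne5 (0.92) and Adap1 (0.91). These are the highest of 12264 values each, and no test was made on them.

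The wider calcium and calmodulin pathway was read through 8 lists with 58 genes, all of them tested. Lower at an unadjusted limma p under 0.05 were 13 genes in Poly I:C, 10 in Low Protein and 7 in MAM, which is 22.4%, 17.2% and 12.1%, against 5.58%, 4.63% and 8.02% of all genes, and 1 gene was higher, in Poly I:C. No pathway gene had an adjusted p under 0.05, the lowest being 0.326. Fold changes below 0 numbered 53, 54 and 55 of the 58, where 48.9%, 55% and 71.9% of all genes lay below 0. Altogether 20 genes were called in at least 1 comparison.

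Upstream of the kinase, calcium channel genes were called in the diet group. Calm3, which encodes calmodulin, had a log2 fold change of -0.18 ± 0.08 (SE) in Poly I:C. Calcium entry had 3 of 7 genes lower in Low Protein and 1 in MAM, and for Poly I:C none of the 7 passed. These were Cacna1b, the pore of the N-type channel, at -0.31 ± 0.14, and the channel beta subunits Cacnb3 at -0.12 ± 0.05 and Cacnb4 at -0.38 ± 0.14. Cacnb4 was also lower in MAM, at -0.31 ± 0.14. A further list was drawn up for proteins that hold calmodulin, and whether each of them binds it was not checked. In that list Pcp4l1 was lower in all 3 comparisons, at -0.68 ± 0.19 for Poly I:C, -0.45 ± 0.19 for Low Protein and -0.62 ± 0.19 for MAM. In Poly I:C its exact permutation p was 0.00216. Nrgn, which encodes neurogranin, was lower in Poly I:C at -0.41 ± 0.12.

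Of the other calmodulin-dependent kinases, 4 of 8 were lower in Low Protein, 4 in Poly I:C and 2 in MAM, not all the same genes. All 8 had fold changes below 0 in each comparison. Camk1g was lower in all 3, at -0.27 ± 0.10 for Poly I:C, -0.23 ± 0.10 for Low Protein and -0.21 ± 0.10 for MAM. Camkk1, a kinase that activates this family, was lower in Low Protein at -0.14 ± 0.06 and in MAM at -0.13 ± 0.06. Camk1d (-0.31 ± 0.14 and -0.37 ± 0.14) and the pseudokinase gene Camkv (-0.17 ± 0.08 and -0.24 ± 0.08) were lower in Low Protein and Poly I:C. Camk1 was lower in Poly I:C at -0.31 ± 0.10. Camkv in Poly I:C had an exact permutation p of 0.00216, with values of 7.89 ± 1.14 (SD, n = 6) against 9.25 ± 0.208 in saline.

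Downstream, partners at the synapse were called mainly in Poly I:C, with 4 of 11 lower there and 1 each in Low Protein and MAM. In Poly I:C these were the glutamate receptor subunits Grin1 (-0.36 ± 0.13) and Gria1 (-0.29 ± 0.12), the scaffold gene Dlg4 (-0.20 ± 0.09) and Actn2, an actin crosslinker (-0.26 ± 0.11). Grin1 was the one called in Low Protein (-0.34 ± 0.13) and Actn2 the one in MAM (-0.24 ± 0.11). Among other substrates the synapsin gene Syn1 was lower in Low Protein (-0.26 ± 0.11) and MAM (-0.24 ± 0.11), and Syn2 in Poly I:C (-0.44 ± 0.15). The transcription factor gene Creb1 was the gene called higher, in Poly I:C, at 0.28 ± 0.13. Of the 7 genes for phosphatases of the kinase and their inhibitor, Ppp1r1a was lower in Poly I:C (-0.28 ± 0.13), and none of the 7 calcineurin genes was called. Whether any of these calls differs between treatments was not tested.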

How the data were processed

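Poly(A) RNA of 24 pups was sequenced from stranded libraries (paired reads). The authors trimmed reads at phred 30 with a minimum length of 25, aligned them to rn6 with STAR 2.4.1d, assigned them to genes by Partek's expectation-maximization method (RefSeq Transcripts 80) and converted them to TPM, adding 0.0001. The deposited TPM values carry this offset and no pseudocount was added here. TPM are not counts, so no count test was used.

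Reads were estimated from steps in the values times the genomic span, which 48.3% to 54.2% of low genes met within 0.05 of a read. Spans come from GRCr8 and were used as lengths (97.5% of genes matched). The 12264 genes averaging 10 or more estimated reads were fitted on log2 values by limma 3.58.1 (R 4.3.3; lmFit, eBayes, group as factor, 24 pups, tested on simulated data). Calls use an unadjusted p under 0.05, without the limit of 0.6 on the log fold change that the study added for Poly I:C and Low Protein, and with Benjamini-Hochberg adjusted p-values beside it. Single genes were also compared by exact two-sided permutation tests over 924 splits. Correlations used 100000 permutations within groups or litters. Counting error is that of estimated reads only. Litters were read from the first part of the pup number.

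The 6 genes, the pathway and marker lists and the tests were chosen with earlier results of these data known. Named beside the 6 genes were all pathway genes with an unadjusted p under 0.05 in at least 1 comparison and the 3 genes most correlated with each of the 6. A few results under this rule are not reported here. Pups numbered alike come from different dams. Over 36 pairs of them the correlation of deviations ran from -0.21 to 0.25, so the numbers pair no pups. Alternatives covered the filter, scaling, pseudocount, pups fitted, litter, block, variance trend and leaving out each pup and litter. Promoter sequences are from RefSeq (GRCr8).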

Additional observations from a re-analysis of the deposited data

Results flagged for a closer look

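In Poly I:C, pup 2.2 had the lowest Camk2d value, 0.0405, and its gap to the next pup made up 0.654 of the range of the 6 log2 values, above the Dixon limit for 6 samples. It was 1 of 24 combinations of gene and group examined, and chance alone flags about 1 in 20. The same pup had the lowest Camk2a, Camk2g, Camk2n1 and Camk2n2 values of its group.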

How the results depend on the processing

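Over 495 recomputed fold changes of the 6 genes against saline, 492 kept their direction and their side of an adjusted p of 0.05. Camk2n2 in MAM turned to 0.0081 without saline pup 2.1 and to 0.028 without saline litter 2, its range over all omissions being -0.21 to 0.028, and Camk2a in Poly I:C reached -0.84 with an adjusted p of 0.0465 without Poly I:C litter 1. The counts of genes at an unadjusted p under 0.05 rest on few pups. Low Protein (2 genes) gave 1 with the study's filter, which leaves 3 of the 6 genes, 4 with the 12 pups compared alone and 1 with litter means. MAM (1 gene) gave 0 with that filter and 2 with 12 pups. Poly I:C (3 genes) gave 5 with median-of-ratios scaling and 5 with upper-quartile scaling. MAM against Poly I:C (2 genes) gave 1 with the filter, with 12 pups and with litter means, and the 4-group test (2 genes) gave 1 with the filter and with litter means. With an absolute log2 fold change of 0.6 or more also required, an alternative chosen after seeing the data, Low Protein and Poly I:C gave 0. Leaving out 1 pup or litter gave 0 to 3 genes in Low Protein, 0 to 1 in MAM, 1 to 6 in Poly I:C, 0 to 0 between Low Protein and MAM, 0 to 3 between Low Protein and Poly I:C, 0 to 4 between MAM and Poly I:C and 0 to 5 in the 4-group test. Low Protein fell to 0 without Low Protein pup 1.1 or 2.1, saline pup 2.1, or litter 2 of either group. MAM fell to 0 without either MAM litter or saline litter 1. Poly I:C rose to 6 without its pup 1.1 or its litter 1, to 5 without its pup 2.1, and fell to 1 without its litter 2. Where a pup or litter decides a count, the cause was not tested. A replicate block on the numbers, which pair no pups, gave 2, 1 and 4 genes against saline and changed no count by more than 1.5 times. Levels per transcript length were not run, since no transcript lengths were at hand. Counting error was at most 6.84% of a value, for Camk2a.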
